A study of Mus musculus with 12 samples.

Results

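Prostaglandins and leukotrienes are lipid mediators made from arachidonic acid, and 10 genes that encode the enzymes of their synthesis were followed here in mouse peritoneal macrophages. The genes were taken by symbol for these roles, with earlier results of these data known, and they are 10 of the 16920 genes in the tables. All 10 passed the filter on low counts and were among the 12064 genes tested. They comprise Pla2g4a for the release of arachidonic acid, Ptgs1 and Ptgs2 for the cyclooxygenase step, Ptges and Ptges2 for prostaglandin E2, Tbxas1 and Hpgds for thromboxane A2 and prostaglandin D2, and Alox5, Alox5ap and Ltc4s for the leukotrienes.

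The study profiled RNA from cells of wild-type C57BL/6 mice (WT) and of C57BL/6 mice labelled Ythdf1-/- (KO). Ythdf1 encodes a protein that binds N6-methyladenosine in mRNA. The cells had been drawn into the peritoneum with 6% starch broth for 3 days according to the series record, or with thioglycollate according to the methods, and were cultured overnight. Stimulation then lasted 6 h, with lipopolysaccharide (LPS, 1 µg/mL), a component of the bacterial outer membrane, or PBS alone. The 4 groups of 3 libraries each were therefore WT PBS, WT LPS, KO PBS and KO LPS. The methods give an age of 6 to 10 weeks for the mice. The KO label names a knockout of the whole animal and not of macrophages alone. The libraries of a group are described as independent biological replicates, but which animals they came from is not given, so p-values measure the spread between these libraries.

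Phospholipase A2 frees arachidonic acid from membrane phospholipids, cyclooxygenases turn it into prostaglandin H2, and terminal synthases turn that into prostaglandin E2, prostaglandin D2, prostacyclin or thromboxane A2. In the other branch, 5-lipoxygenase, with its activating protein, makes leukotriene A4, from which leukotriene B4 and the cysteinyl leukotrienes are formed. Macrophages carry both branches, and Ptgs2, the inducible cyclooxygenase, is a textbook target of LPS in these cells. The transcripts measured here do not give the amounts of enzyme or lipid.

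The libraries held 21546274 to 22017005 counts each. Levels are given as CPM (counts scaled to a common library size), and a floor of 3 counts corresponded to 0.105 to 0.187 CPM. Ythdf1 itself, the targeted gene, averaged 43.5 ± 1.54 CPM in WT PBS and 57.2 ± 1.53 in KO PBS, and 201 ± 9.37 in WT LPS and 198 ± 6.94 in KO LPS (SD, n = 3). Its mRNA was thus higher by the KO label under PBS (log2 fold change 0.40, adjusted p = 0.000133) and not detectably different under LPS (-0.03, adjusted p = 0.724), and the comparisons between genotypes rest on the labels. WT LPS replicate 1 stood apart from replicates 2 and 3 of its group, with a mean chi-square per gene of 33.5 and 26.2 against them and 3.08 between them. In KO LPS, replicates 2 and 3 had 16.9 between them and 7.43 and 6.10 against replicate 1, while the PBS pairs had 2.77 to 4.72. The 10 macrophage markers were above the floor in every library, with summed levels of 18084 to 20625 CPM, mostly Lyz2 and Cd68. By the KO label, 1 of them was higher and 1 lower under PBS, and 1 was higher and 3 lower under LPS, among them Mertk (233 CPM in WT LPS and 98.3 in KO LPS) and Csf1r (425 and 295). Of the 8 mast cell markers in the tables, Cpa3, Mcpt4, Tpsb2, Cma1, Ms4a2 and Mrgprb2 were at or under the floor in all 12 libraries. Summed fibroblast markers were 75.3 to 89.0 CPM in WT PBS, 33.0 to 46.4 in KO PBS, 119 to 132 in WT LPS and 57.2 to 69.8 in KO LPS, and all 5 of those tested were lower by the KO label under both treatments. Summed dendritic cell markers, mostly Itgax, were 319 to 337 CPM in WT PBS, 160 to 166 in KO PBS, 318 to 371 in WT LPS and 162 to 189 in KO LPS. Of the 9 resident peritoneal macrophage markers tested, 5 were lower and 1, Icam2, was higher by the KO label under PBS, and 4 were lower under LPS. Over all genes, 12.3% were called higher and 13% lower under PBS, and 22.1% and 19.3% under LPS. Summed neutrophil markers were 5.65 to 6.94 CPM in WT PBS, 7.49 to 7.97 in KO PBS, 11.9 to 14.5 in WT LPS and 13.9 to 21.9 in KO LPS, with both tested markers higher by the KO label under LPS and S100a9, Mpo, Elane and Retnlg at or under the floor in all 12 libraries. Summed T cell markers were 37.6 to 41.9 CPM in WT PBS, 52.7 to 56.5 in KO PBS, 11.97 to 15.5 in WT LPS and 5.53 to 6.37 in KO LPS, with Cd3e, Cd3d and Cd3g at or under the floor throughout. The T cell sum was nearly all Cd28 in PBS (means of 37.0 CPM in WT and 52.1 in KO) and mostly Lck in LPS (10.3 and 3.96), as Cd28 was lower and Lck higher with LPS. Summed B cell markers, mostly Cd22, were 111 to 116 CPM in WT PBS, 102 to 104 in KO PBS, 74.2 to 90.4 in WT LPS and 48.0 to 53.4 in KO LPS. Of the 8 mesothelium markers tested, 2 were lower by the KO label under PBS and 1 under LPS, and none was higher. The part of these markers in the differences between labels given here was not tested, and fewer cells of a type cannot be told apart from less RNA per cell in such libraries.

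The 3 members that responded most to LPS in WT were Ptgs2, Ptges and Pla2g4a, and their promoters are shown because the 3 rose together under both labels. Each sequence is RefSeq's for GRCm38.p6 and runs on the gene's strand from 250 bases before the start given in RefSeq's promoter entry to 30 bases after it. Capitals mark matches to 8 motifs searched on both strands by their letters (TATA box TATAAA, CRE core TGACG, E-box CACGTG, C/EBP TTNNGNAA, AP-1 TGANTCA, Egr1 GCGNGGGCG, PU.1 core GAGGAA and GC box GGGCGG) and to the NF-kB consensus. The Ptgs2 window is chr1:150099781-150100060 (plus strand), that of Ptges chr2:30903268-30903547 (minus strand), and that of Pla2g4a, at the outer of its annotated starts, chr1:149961261-149961540 (minus strand). The Ptges window lies at a start inside the annotated gene and not at the gene's outer end, base 30931020.
Ptgs2: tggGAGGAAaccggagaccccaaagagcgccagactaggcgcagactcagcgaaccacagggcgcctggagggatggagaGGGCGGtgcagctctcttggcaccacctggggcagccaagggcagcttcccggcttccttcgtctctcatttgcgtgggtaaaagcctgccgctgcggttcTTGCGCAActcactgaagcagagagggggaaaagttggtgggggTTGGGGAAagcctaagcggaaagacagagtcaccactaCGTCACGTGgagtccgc
Ptges: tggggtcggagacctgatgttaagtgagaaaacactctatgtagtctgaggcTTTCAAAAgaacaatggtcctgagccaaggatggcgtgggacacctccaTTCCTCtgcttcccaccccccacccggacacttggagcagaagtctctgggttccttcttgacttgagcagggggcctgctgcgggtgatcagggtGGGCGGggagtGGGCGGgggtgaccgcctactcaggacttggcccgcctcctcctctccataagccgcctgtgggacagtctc
Pla2g4a: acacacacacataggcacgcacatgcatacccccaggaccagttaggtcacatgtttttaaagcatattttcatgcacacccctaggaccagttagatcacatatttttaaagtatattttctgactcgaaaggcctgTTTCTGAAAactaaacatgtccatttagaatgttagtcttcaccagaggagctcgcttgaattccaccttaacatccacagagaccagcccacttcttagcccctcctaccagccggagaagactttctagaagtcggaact

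In the Ptgs2 window a CRE core on the minus strand (bases 14 to 18 after the start) overlapped an E-box (17 to 22), and C/EBP motifs lay at -69 to -62 and at -25 to -18. Ptges held a C/EBP motif at -198 to -191 and GC boxes at -53 to -48 and -42 to -37. Pla2g4a held overlapping C/EBP motifs on opposite strands at -112 to -105 and -111 to -104. Over all 32851 promoters of the same length, the CRE core occurred in 19.9%, the E-box in 6.79%, the C/EBP motif in 39.3%, the PU.1 core in 26.0% and the GC box in 34.7%. The C/EBP motif was in 5 of the 9 members with a promoter entry, including all 3 shown here, and the PU.1 core was in 7 of the 9. A member was counted if any of its entries matched, and Pla2g4a had a further entry at an inner start. The shares over all promoters are per entry, so these counts and shares are not like for like. The NF-kB consensus, found in 7.94% of all promoters, and the Egr1 motif, found in 5.30%, matched no window of the 9 members. Such matches describe letters in a short window and not binding.

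To compare the genes with one another, levels were divided by transcript length (CPM per kb, longest protein-coding transcript in GENCODE). In WT PBS, Alox5ap, the small membrane protein that presents arachidonic acid to 5-lipoxygenase, led at 192 ± 7.48 CPM per kb (SD, n = 3). Tbxas1, thromboxane synthase, followed at 41.1 ± 1.45 and Hpgds, the haematopoietic prostaglandin D synthase, at 18.1 ± 1.06. Below them came Ltc4s (6.12), Ptgs1 (4.66), Pla2g4a (3.83), Ptges2 (2.11), Ptges (0.971) and Alox5 (0.704), and Ptgs2 was the lowest of the 10 at 0.245 ± 0.0178 CPM per kb. Each gap in that order was larger than the SDs of the neighbours. In WT LPS, Ptgs2 was the highest of the 10 at 363 ± 21.4, followed by Alox5ap at 144 ± 7.51 and Ptges at 51.7 ± 5.24. Tbxas1 (23.4) and Pla2g4a (22.5) did not differ beyond their spread in that group, nor did Ltc4s (4.37), Ptges2 (4.33) and Hpgds (4.03), while Ptgs1 (2.56) and Alox5 (0.527) were the lowest. KO PBS had the same order as WT PBS, but Ptgs1 (3.77) and Pla2g4a (3.71) did not differ beyond their spread there, nor did Ptges (0.807) and Alox5 (0.620). In KO LPS, Ptgs2 reached 1018 ± 103 CPM per kb, Pla2g4a (28.1) stood above Tbxas1 (17.1), and Ltc4s (4.93) and Ptges2 (4.92) were level. Together the 10 genes took 0.0546% ± 0.00104 of all counts in WT PBS, 0.171% ± 0.00607 in WT LPS, 0.0626% ± 0.00133 in KO PBS and 0.389% ± 0.0326 in KO LPS. Ptgs2 alone took 0.129% ± 0.00574 in WT LPS and 0.341% ± 0.0325 in KO LPS. The other 9 genes together took 0.0544% in WT PBS and 0.0421% in WT LPS, and 0.0625% in KO PBS and 0.0477% in KO LPS. As a share of counts, the higher sum with LPS was thus that of Ptgs2. These shares use library totals, without the scaling factors behind the CPM (1.26 to 1.27 in WT PBS, 0.786 to 0.808 in WT LPS). A sum of CPM need not move the same way.

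**Figure D1:**
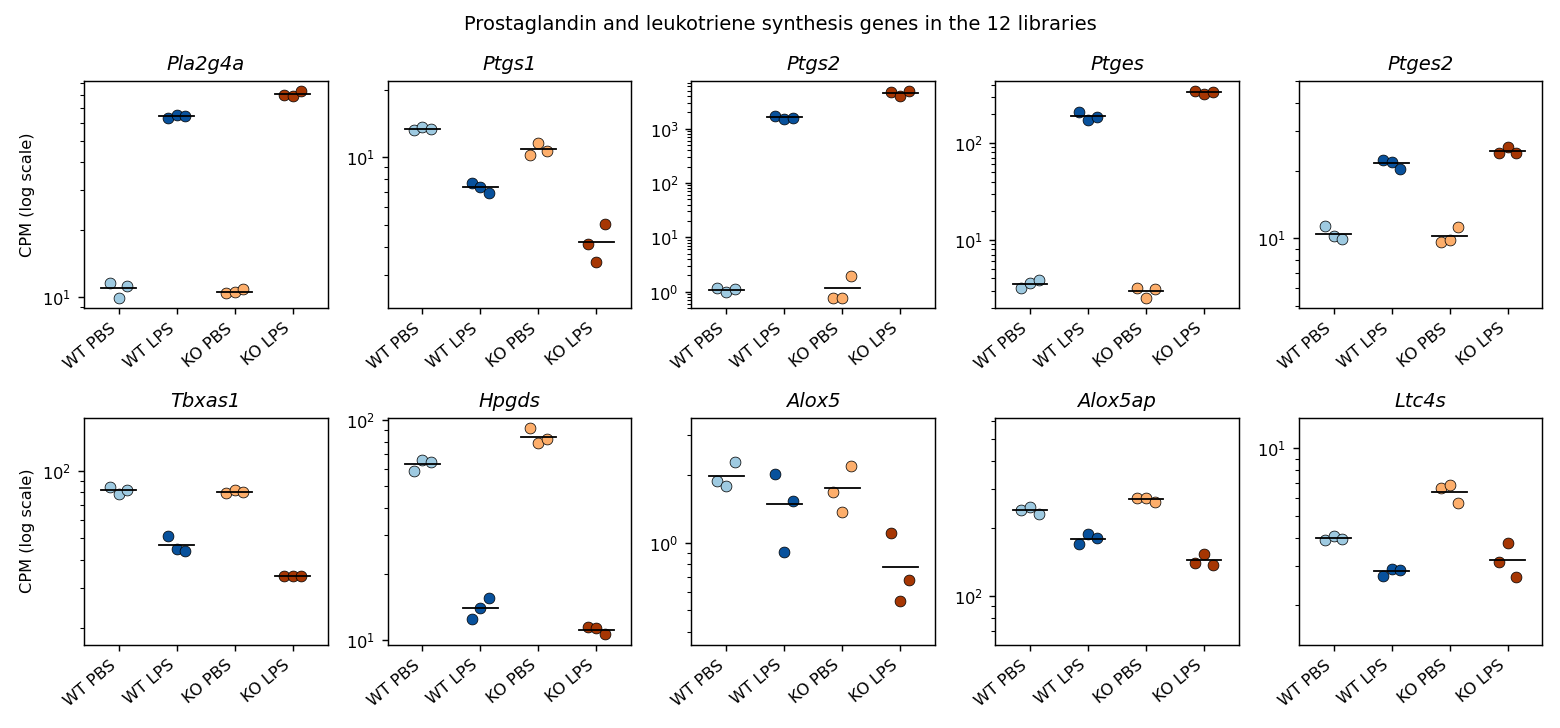
Level of each of the 10 genes in every library, in CPM on a log axis whose range differs between panels, by group (points are libraries, lines are means of 3). Ptgs2, Ptges, Ptges2 and Pla2g4a lie higher in all LPS libraries than in any PBS library, with Ptgs2 between 0.770 and 1.95 CPM in PBS and between 1528 and 4877 in LPS, while Hpgds, Tbxas1, Alox5ap, Ltc4s and Ptgs1 lie lower.

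To learn how LPS altered the pathway, PBS and LPS libraries were compared within each label. In WT, 4 of the 10 members rose and 5 fell, where 36.5% of all genes tested were called higher and 40.2% lower. In the KO-labelled cells, 4 rose and 6 fell, where 38.8% of all genes were called higher and 41.1% lower. Most genes of the table responded to LPS, and the shares of members called in each direction lay close to these backgrounds. The members' median log2 fold change was -0.42 in WT and -0.95 in KO, against -0.05 and -0.04 over all genes, and their median absolute change was 0.95 and 1.32, against 0.69 and 0.81. The genes that rose under both labels were Pla2g4a, Ptgs2, Ptges and Ptges2, which lead from membrane phospholipid to prostaglandin E2, and those that fell under both were Ptgs1, Tbxas1, Hpgds, Alox5ap and Ltc4s, while Alox5 passed as lower in KO and did not pass in WT. A scaling by library totals alone moved the median of all genes by -0.66 in WT and -0.80 in KO, and the upper-quartile scaling moved it by -0.31 and -0.36. With totals alone, 21.2% of the genes called in WT and 20.8% of those called in KO were higher, in place of 47.6% and 48.6%, and with the upper-quartile scaling 32.5% and 33.8% were. The direction of all 10 members in both LPS comparisons was the same under the 4 scalings.

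Arachidonate release was represented by Pla2g4a (gene 18783, chromosome 1 from 149829618 to 149961290, minus strand, 18 exons), the cytosolic phospholipase A2. It stood at 11.6, 9.95 and 11.3 CPM in WT PBS and at 63.1, 65.3 and 64.6 CPM in WT LPS. The values were 10.4, 10.5 and 10.8 CPM in KO PBS and 79.5, 78.7 and 82.9 CPM in KO LPS. All LPS libraries lay above all PBS libraries, and the KO LPS libraries lay above the WT LPS libraries. The log2 fold change with LPS was 2.56 ± 0.0669 (SE) in WT, which is 5.88-fold (adjusted p = 1.35e-15), and 2.92 ± 0.0671 in KO, which is 7.59-fold (adjusted p = 1.91e-16).

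Of the cyclooxygenases, Ptgs2 (gene 19225, chromosome 1 from 150100031 to 150108234, plus strand, 10 exons) was low at rest and among the most induced genes of the table. It was measured at 1.16, 1.00 and 1.11 CPM in WT PBS, from 28 to 32 counts, and at 1718, 1528 and 1605 CPM in WT LPS. In KO PBS it was at 0.770, 0.772 and 1.95 CPM, and in KO LPS at 4710, 4015 and 4877 CPM. The third KO PBS library, with 55 counts, was the highest of the 6 PBS libraries, while every KO LPS library lay above every WT LPS library. LPS raised Ptgs2 by 10.53 ± 0.205 on the log2 scale in WT (1477-fold, adjusted p = 3.51e-15) and by 11.92 ± 0.211 in KO (3886-fold, adjusted p = 9.98e-16). In order of log2 fold change it was the 15th of the 12064 genes from the top in WT and the 12th in KO.

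Ptgs1 (gene 19224, chromosome 2 from 36216742 to 36258593, plus strand, 11 exons), the constitutive cyclooxygenase, moved the other way. Its levels were 13.2, 13.6 and 13.3 CPM in WT PBS and 7.69, 7.40 and 6.94 CPM in WT LPS. They were 10.2, 11.5 and 10.7 CPM in KO PBS and 4.11, 3.43 and 5.04 CPM in KO LPS. The 4 groups did not overlap, in the descending order WT PBS, KO PBS, WT LPS and KO LPS. Ptgs1 fell by 0.86 ± 0.0998 on the log2 scale in WT (adjusted p = 5.92e-07) and fell by 1.37 ± 0.114 in KO (adjusted p = 7.97e-09). Per transcript length, Ptgs2 made up 4.99% ± 0.405 of the sum of both cyclooxygenases in WT PBS and 99.3% ± 0.0411 in WT LPS. The corresponding shares were 6.42% ± 3.54 in KO PBS and 99.9% ± 0.0152 in KO LPS (SD, n = 3).

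Among the prostaglandin E synthases, Ptges (gene 64292, chromosome 2 from 30889471 to 30931020, minus strand, 3 exons), the inducible microsomal enzyme, rose with Ptgs2. It was measured at 3.18, 3.61 and 3.82 CPM in WT PBS and at 210, 172 and 183 CPM in WT LPS. It was measured at 3.22, 2.53 and 3.08 CPM in KO PBS and at 341, 317 and 338 CPM in KO LPS. The PBS groups overlapped each other, and the KO LPS libraries were all above the WT LPS libraries. Its log2 fold change with LPS was 5.73 ± 0.102 in WT (53.1-fold, adjusted p = 1.24e-17) and 6.81 ± 0.106 in KO (113-fold, adjusted p = 2.29e-18). The annotated gene models Gm52550 and Gm13400 overlap Ptges, and whether the counting used strand is not given.

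Ptges2 (gene 96979, chromosome 2 from 32395890 to 32402740, plus strand, 7 exons), a membrane-associated prostaglandin E synthase regarded as constitutive, rose much less. Its levels were 11.4, 10.2 and 9.90 CPM in WT PBS, 22.3, 21.9 and 20.4 in WT LPS, 9.59, 9.86 and 11.2 in KO PBS, and 23.9, 25.5 and 24.1 in KO LPS. Under both labels every LPS library lay above every PBS library. The rise was 1.04 ± 0.0817 on the log2 scale in WT (2.05-fold, adjusted p = 4.31e-09) and 1.26 ± 0.0814 in KO (2.40-fold, adjusted p = 2.47e-10). With totals alone, it was smaller, at 0.37 in WT and 0.46 in KO.

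Ptges3, the cytosolic prostaglandin E synthase and also a co-chaperone of Hsp90, is not among the 10 genes and is set beside Ptges and Ptges2 here. Per transcript length, Ptges made up 3.09% ± 0.381 of the sum of Ptges, Ptges2 and Ptges3 in WT PBS and 49.3% ± 2.84 in WT LPS, and 2.28% ± 0.276 in KO PBS and 57.0% ± 1.61 in KO LPS. The share of Ptges2 was 6.68% ± 0.363 in WT PBS and 4.14% ± 0.151 in WT LPS, so it fell as a share while its own level rose. Ptges3 held the rest, 90.2% ± 0.280 in WT PBS and 46.5% ± 2.71 in WT LPS.

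The other terminal synthases fell with LPS. Hpgds (gene 54486, chromosome 6 from 65117293 to 65144981, minus strand, 6 exons) was at 58.8, 65.7 and 64.6 CPM in WT PBS and at 12.5, 14.0 and 15.6 CPM in WT LPS. In KO PBS it was at 92.1, 78.4 and 82.2 CPM, and in KO LPS at 11.5, 11.3 and 10.6 CPM. The KO-labelled libraries were thus the highest at rest and the lowest after LPS, with no overlap between any of the 4 groups. It fell by 2.17 ± 0.0872 on the log2 scale in WT (4.49-fold lower, adjusted p = 4.34e-13) and fell by 2.92 ± 0.0905 in KO (7.55-fold lower, adjusted p = 1.09e-14). Its counts carried decimals in all 12 libraries, as reads shared with another gene would give, so its level is less certain than those of Pla2g4a, Ptges2, Tbxas1, Alox5, Alox5ap and Ltc4s, whose counts were whole.

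Tbxas1 (gene 21391, chromosome 6 from 38864159 to 39084590, plus strand, 13 exons) was at 84.7, 78.9 and 81.6 CPM in WT PBS and at 51.4, 44.8 and 43.7 CPM in WT LPS. It was at 79.1, 81.8 and 80.1 CPM in KO PBS and at 34.1 CPM in each of the 3 KO LPS libraries. The PBS groups overlapped, and both LPS groups lay below them, the KO LPS libraries lowest. The fall was -0.81 ± 0.0642 on the log2 scale in WT (1.75-fold lower, adjusted p = 4.59e-09) and -1.24 ± 0.0660 in KO (2.36-fold lower, adjusted p = 1.84e-11). Hipk2 and 6 other annotated genes overlap the long Tbxas1 locus. Platelets are a classical source of thromboxane, and the summed platelet and megakaryocyte markers, mostly Pf4, were 103 to 114 CPM in WT PBS, 119 to 157 in WT LPS, 77.3 to 83.9 in KO PBS and 89.7 to 113 in KO LPS. Apart from Pf4, no marker of that list averaged more than 0.923 CPM in any group (Alox12 in KO LPS). Gp9 and Gp5 were at or under the floor in all 12 libraries.

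Per transcript length, Tbxas1 made up 68.2% ± 2.03 of the sum of Ptges, Tbxas1 and Hpgds in WT PBS and Hpgds 30.1% ± 1.90, with 1.61% ± 0.149 for Ptges. In WT LPS, Ptges made up 65.2% ± 1.07, Tbxas1 29.6% ± 0.961 and Hpgds 5.15% ± 0.898. In KO LPS, Ptges reached 81.7% ± 0.609, with 15.4% ± 0.483 for Tbxas1 and 2.88% ± 0.160 for Hpgds. Among these 3 genes the leading transcript thus changed from Tbxas1 to Ptges under both labels, and the share of Ptges was higher in each KO LPS library (81.0% to 82.1%) than in each WT LPS library (64.1% to 66.1%).

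**Figure D2:**
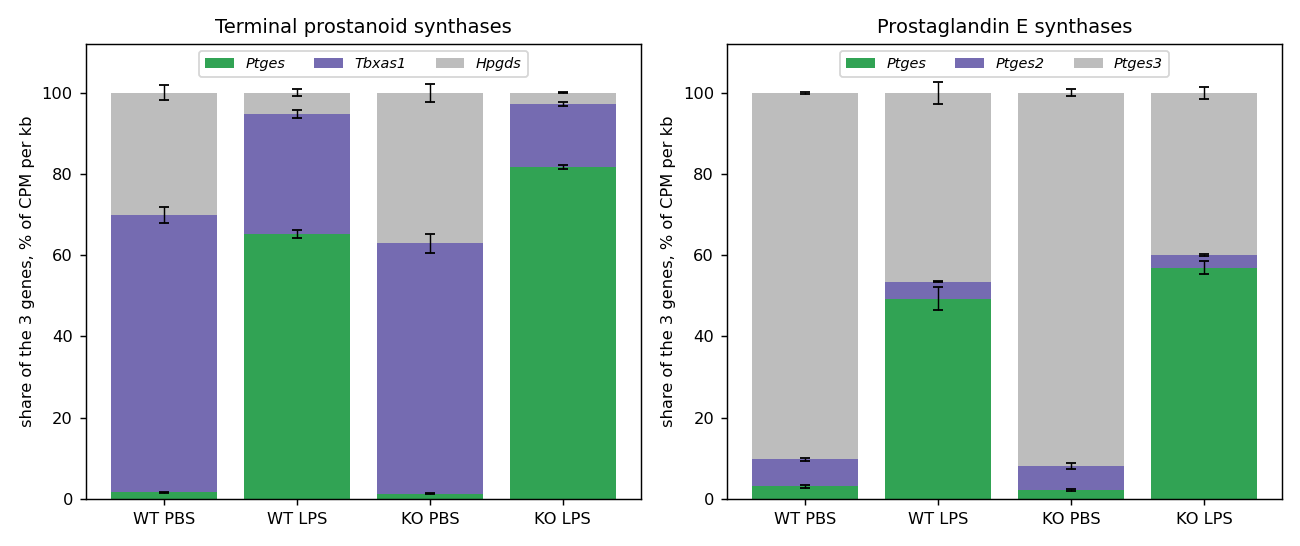
Stacked shares of 3 terminal prostanoid synthases (left) and of 3 prostaglandin E synthases (right) in each group, as percent of their summed CPM per kb; segments are means and error bars SDs of 3 libraries. Ptges grows from 1.61% to 65.2% of the left sum in WT and from 1.23% to 81.7% in KO.

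In the leukotriene branch, Alox5ap (gene 11690, chromosome 5 from 149265004 to 149288153, plus strand, 5 exons) was the most abundant member. Its levels were 240, 250 and 231 CPM in WT PBS and 170, 189 and 180 CPM in WT LPS. They were 274, 273 and 262 CPM in KO PBS and 140, 154 and 138 CPM in KO LPS. As for Hpgds, the KO PBS libraries were the highest and the KO LPS libraries the lowest, with no overlap between groups. Alox5ap fell by 0.42 ± 0.0599 on the log2 scale in WT (adjusted p = 7.21e-06) and fell by 0.90 ± 0.0605 in KO (adjusted p = 4.20e-10).

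Alox5 (gene 11689, chromosome 6 from 116410071 to 116461178, minus strand, 14 exons), the 5-lipoxygenase itself, was scarce, with 9 to 64 counts per library. It stood at 1.88, 1.79 and 2.29 CPM in WT PBS, 2.02, 0.911 and 1.52 in WT LPS, 1.68, 1.37 and 2.20 in KO PBS, and 1.10, 0.551 and 0.684 in KO LPS. The PBS and LPS libraries overlapped in WT and did not overlap in KO. The log2 fold change with LPS was -0.42 ± 0.267 in WT, which did not pass (95% interval -0.99 to 0.15, adjusted p = 0.163), and -1.16 ± 0.317 in KO (adjusted p = 0.00316). In WT a fall was called under the upper-quartile scaling (-0.73), with totals alone (-1.08) and without WT LPS replicate 1 (-0.70, adjusted p = 0.0356). Without WT LPS replicate 2 the value was -0.16 (adjusted p = 0.588).

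Ltc4s (gene 17001, chromosome 11 from 50236461 to 50238532, minus strand, 5 exons), which joins leukotriene A4 to glutathione, was at 3.91, 4.08 and 3.93 CPM in WT PBS and at 2.72, 2.90 and 2.88 CPM in WT LPS. It was at 6.69, 6.84 and 5.70 CPM in KO PBS and at 3.13, 3.80 and 2.67 CPM in KO LPS. Its highest libraries were those of KO PBS, and the LPS groups overlapped each other. Ltc4s fell by 0.49 ± 0.140 on the log2 scale in WT (adjusted p = 0.00487) and fell by 1.00 ± 0.131 in KO (adjusted p = 2.27e-06). Mast cells and eosinophils are known for this enzyme, and the summed eosinophil markers were 4.11 to 4.50 CPM in WT PBS, 4.51 to 4.67 in WT LPS, 2.44 to 3.58 in KO PBS and 2.86 to 3.80 in KO LPS.

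**Figure D3:**
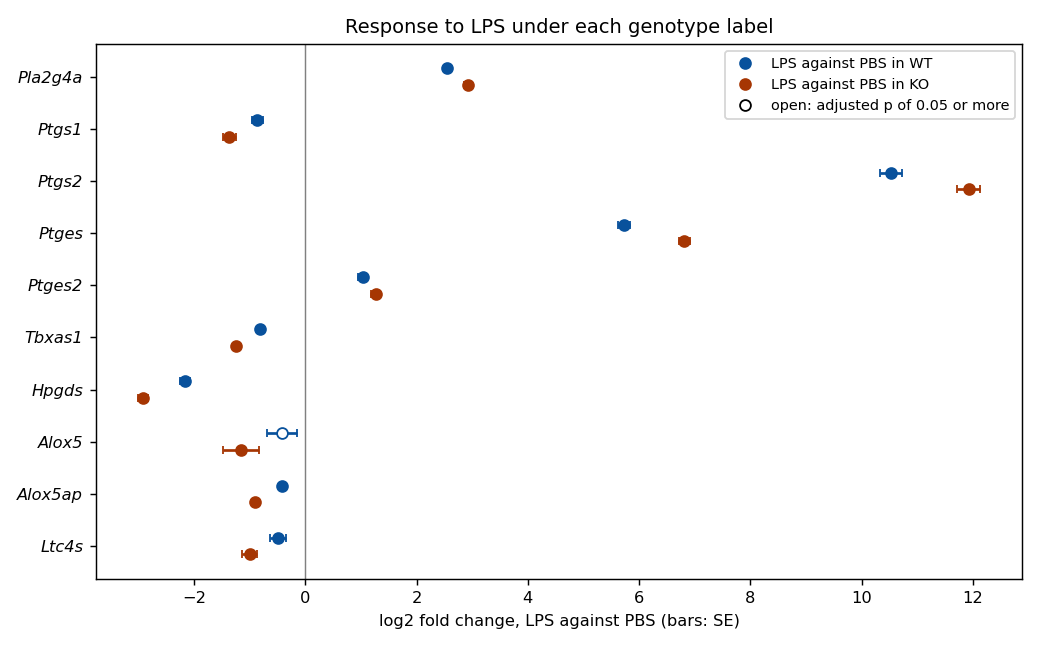
The log2 fold change of each gene with LPS in WT (blue) and in KO-labelled cells (brown), with bars for the SE of edgeR's quasi-likelihood fit over 12 libraries; the open circle did not pass. Ptgs2 lies farthest to the right at 10.53 in WT and 11.92 in KO, and Hpgds farthest to the left at -2.17 and -2.92.

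The genotype labels were compared next in cells without LPS, to see what the KO label changed at rest. Of the 10 members, 2 were higher and 1 was lower by the KO label, where 12.3% of all genes were called higher and 13% lower. Ltc4s was higher by 0.69 ± 0.114 on the log2 scale (1.61-fold, adjusted p = 0.000366) and Hpgds by 0.42 ± 0.0749 (1.34-fold, adjusted p = 0.000725), both in 3 of 3 libraries. Ptgs1 was lower, with a log2 fold change of -0.30 ± 0.0886 (adjusted p = 0.0196). Its call was lost without any 1 of the WT PBS libraries and without KO PBS replicate 1 or 3, where the value lay between -0.31 and -0.24 and the adjusted p between 0.0547 and 0.124. Alox5ap was just outside the threshold at 0.16 ± 0.0593 (95% interval 0.04 to 0.29, adjusted p = 0.0533) although its groups did not overlap. It passed in 10 of 20 alternatives, among them RLE scaling (0.18, adjusted p = 0.0328), totals alone (0.21, adjusted p = 0.0188), DESeq2 (0.18, adjusted p = 0.0112) and a fit to the PBS libraries alone (0.16, adjusted p = 0.00117).

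The remaining 6 members were not called at rest. The interval for Pla2g4a was -0.20 to 0.11, for Ptges2 -0.22 to 0.14 and for Tbxas1 -0.16 to 0.11, each around a value near 0. That for Ptges was -0.55 to 0.01 (log2 fold change -0.27, adjusted p = 0.156) and that for Alox5 -0.69 to 0.32. For Ptgs2 the interval was wide, from -0.59 to 0.78 around 0.09, and without the high KO PBS replicate 3 its value was -0.47 (adjusted p = 0.186). The members' median was -0.03, against 0.00036 over all genes.

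Under LPS the same comparison gave more and larger differences. By the KO label, 3 members were higher and 5 lower, where 22.1% of all genes were called higher and 19.3% lower. The members that were higher, Ptgs2, Ptges and Pla2g4a, are the 3 that LPS had raised most, and the 5 that were lower, Ptgs1, Tbxas1, Hpgds, Alox5ap and Alox5, all had negative values with LPS in WT. The members' median was -0.07 against 0.00059 over all genes, with a median absolute difference of 0.39 against 0.27. This comparison and the LPS comparisons share libraries, so their values stand side by side without further test.

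Ptgs2 was higher in the KO LPS libraries by 1.49 ± 0.124 on the log2 scale (2.80-fold, adjusted p = 9.67e-07) and ranked 100th of the 12064 genes from the top. It kept its call in all 20 alternatives tried, with values from 1.40 to 1.57. Ptges was higher by 0.82 ± 0.0747 (1.76-fold, adjusted p = 5.47e-07) and Pla2g4a by 0.32 ± 0.0596 (1.25-fold, adjusted p = 0.000439), each in 3 of 3 libraries. Ptges2, at 0.19 ± 0.0791 (95% interval 0.02 to 0.35), did not pass (adjusted p = 0.0699) although its groups did not overlap.

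Ptgs1 was lower by the KO label with a log2 fold change of -0.81 ± 0.126 (1.75-fold lower, adjusted p = 0.000104) and Tbxas1 with -0.45 ± 0.0679 (1.37-fold lower, adjusted p = 7.46e-05). Alox5ap was lower at -0.32 ± 0.0607 (adjusted p = 0.000550). Hpgds was lower at -0.33 ± 0.102 (adjusted p = 0.0157), a call that was lost without WT LPS replicate 3 (-0.25, adjusted p = 0.0867) or without KO LPS replicate 3 (-0.30, adjusted p = 0.0559). Alox5 was called lower at -0.92 ± 0.348 (adjusted p = 0.0436) with overlapping libraries, and its call was lost in a fit to the LPS libraries alone (adjusted p = 0.0714). It was also lost when any 1 of 7 libraries was left out (WT PBS replicates 1 and 2, WT LPS replicates 1 and 3, KO PBS replicate 1, KO LPS replicates 2 and 3), with the value nearest 0 at -0.64 (adjusted p = 0.178) without WT LPS replicate 1. For Ltc4s the difference was 0.18 ± 0.158 (95% interval -0.16 to 0.51, adjusted p = 0.403), within the spread between libraries.

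**Figure D4:**
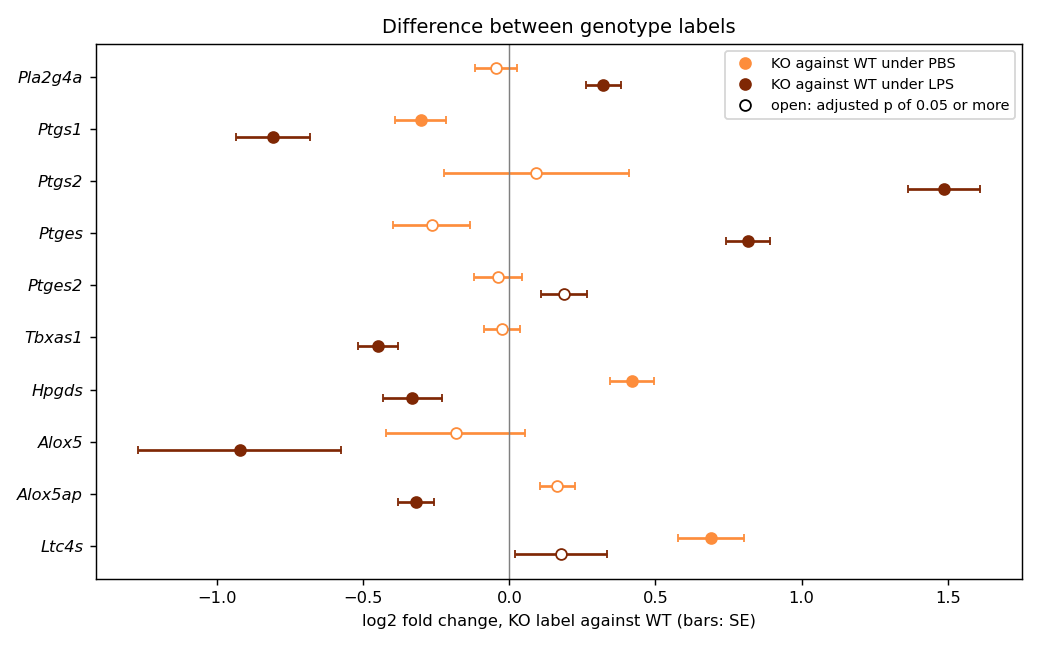
The log2 fold change of each gene by the KO label against WT under PBS (orange) and under LPS (dark brown), with SE bars; open circles did not pass. Under LPS, Ptgs2 lies at 1.49 and Ptges at 0.82, whereas Alox5 lies at -0.92 and Ptgs1 at -0.81, and Hpgds turns from 0.42 under PBS to -0.33.

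Whether the response to LPS itself differed between the labels was tested as the interaction of label with treatment. It was called for 7 of the 10 members, 3 with a more positive and 4 with a more negative response by the KO label, where 9.78% of all genes were called in the positive and 8.26% in the negative direction. Ptgs2 (1.40 ± 0.345, adjusted p = 0.0140), Ptges (1.08 ± 0.151, adjusted p = 0.000147) and Pla2g4a (0.37 ± 0.0937, adjusted p = 0.0128) rose more. Hpgds (-0.75 ± 0.126, adjusted p = 0.000717), Ptgs1 (-0.50 ± 0.155, adjusted p = 0.0334), Alox5ap (-0.48 ± 0.0848, adjusted p = 0.000980) and Tbxas1 (-0.43 ± 0.0917, adjusted p = 0.00436) fell more. The high resting value of Ptgs2 in KO PBS replicate 3 bears on its interaction, which was 1.95 (adjusted p = 4.08e-05) without that library. The median over the members was -0.45, against 0.01 over all genes.

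The interaction of Ptgs1 did not pass without 1 of 6 libraries in turn (WT PBS replicate 2 or 3, WT LPS replicate 2, KO PBS replicate 2, or KO LPS replicate 1 or 2), with its smallest value at -0.38 (adjusted p = 0.0928). That of Pla2g4a did not pass when WT PBS replicate 1 or either of the first 2 KO PBS replicates was left out, nor with totals alone (0.23, adjusted p = 0.0944). Ltc4s (-0.51 ± 0.195, adjusted p = 0.0811), Alox5 (-0.74 ± 0.423, adjusted p = 0.258) and Ptges2 (0.23 ± 0.115, 95% interval -0.02 to 0.47, adjusted p = 0.200) were not called. Ltc4s passed with totals alone (-0.65), without KO PBS replicate 3 (-0.63) and without KO LPS replicate 2 (-0.66).

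The surrounding pathway was described with 5 lists of phospholipases, other synthases, leukotriene enzymes, degradation and transport genes, and receptors, of which 65 genes were in the tables and 52 were tested. With LPS in WT, 23 of the 52 rose, 17 fell and 12 did not pass, and in KO 20 rose and 22 fell. Over all genes, 36.5% were called higher and 40.2% lower in WT, and 38.8% and 41.1% in KO, so these counts lie near the background. The median over the lists was 0.05 in WT and 0.04 in KO, against the -0.05 and -0.04 over all genes given above.

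Among the 18 phospholipases and genes of arachidonate handling, 10 rose and 6 fell with LPS in WT, beside 36.5% and 40.2% of all genes. Acsl1, which activates long-chain fatty acids to their CoA esters, rose by 2.71 ± 0.0603 on the log2 scale, from 45.6 ± 2.26 to 299 ± 14.3 CPM. Pla2g15, the lysosomal phospholipase A2, fell by 3.43 ± 0.0852, from 198 ± 2.92 to 18.5 ± 2.64 CPM. Daglb, a diacylglycerol lipase, fell by 3.57 ± 0.128 in KO, from 179 to 15.1 CPM. By the KO label, Mgll, the monoacylglycerol lipase that can yield arachidonic acid from 2-arachidonoylglycerol, was lower under both treatments. It averaged 66.8 ± 3.30 CPM in WT PBS against 20.04 ± 0.942 in KO PBS (log2 fold change -1.74 ± 0.0807, adjusted p = 6.69e-10) and 64.0 ± 3.12 in WT LPS against 22.3 ± 2.91 in KO LPS (-1.52 ± 0.0846, adjusted p = 2.31e-09). Lpcat3, which puts arachidonate back into phospholipids, was lower by the KO label under PBS (-0.38 ± 0.0596, adjusted p = 0.000245).

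Of the 6 other prostanoid synthases tested, 2 rose, 2 fell and 2 did not pass with LPS in WT, where 36.5% of all genes were higher and 40.2% lower. Cbr1, a carbonyl reductase, fell by 1.54 ± 0.114 in WT and by 2.43 ± 0.130 in KO, where it reached 1.54 ± 0.102 CPM. Ptgis, the prostacyclin synthase, was lower by the KO label under PBS (-0.68 ± 0.144, adjusted p = 0.00256) and under LPS (-0.84 ± 0.153, adjusted p = 0.000367), with 7.74 ± 0.566 CPM in WT PBS and 4.83 ± 0.642 in KO PBS. It is known from fibroblasts and vessels. The summed fibroblast markers given above were also lower by the KO label under both treatments, and their part in the Ptgis difference was not tested. Fam213b, a prostaglandin F synthase, was also lower under both treatments (-0.44 and -0.69). Under LPS, 1 of these 6 genes was higher by the KO label and 4 were lower, beside 22.1% and 19.3% of all genes.

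In the leukotriene branch beyond the 10 genes, Lta4h, which makes leukotriene B4 from leukotriene A4, fell from 76.8 ± 3.16 to 20.1 ± 0.322 CPM with LPS in WT (-1.93 ± 0.0719, adjusted p = 1.47e-13). In KO it fell from 63.5 ± 2.77 to 14.3 ± 1.51 CPM (-2.15 ± 0.0755), and it was lower by the KO label under LPS (-0.49 ± 0.0818, adjusted p = 0.000187). Dpep2, a dipeptidase that acts on leukotriene D4, rose by 0.69 ± 0.0625 in WT and by 0.98 ± 0.0627 in KO. Cyp4f18, which inactivates leukotriene B4, was higher by the KO label under PBS (0.39 ± 0.0927, adjusted p = 0.00614) and Ephx1, an epoxide hydrolase, was lower (-0.31 ± 0.0943, adjusted p = 0.0258). Cotl1, a partner of 5-lipoxygenase, was lower by the KO label under LPS (-0.47 ± 0.0751). With LPS in WT, 4 of the 10 tested genes of this list rose and 3 fell, and in KO 2 rose and 4 fell, beside 36.5% and 40.2% of all genes in WT and 38.8% and 41.1% in KO.

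Of the 7 genes of degradation and transport, 3 rose and 3 fell with LPS in WT, and 3 rose and 4 fell in KO, beside the same shares of all genes (36.5% and 40.2%, 38.8% and 41.1%). Ptgr2, a prostaglandin reductase, fell by 1.91 ± 0.101 in WT and by 2.36 ± 0.104 in KO. Abcc1, an exporter of leukotriene C4, rose by 1.35 ± 0.135 in WT and by 1.90 ± 0.136 in KO, and was higher by the KO label under LPS (0.54 ± 0.132, adjusted p = 0.00518). It averaged 221 ± 52.2 CPM in WT LPS and 323 ± 30.5 in KO LPS.

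Among the 11 receptors tested, 4 rose and 3 fell with LPS in WT, and 4 rose and 5 fell in KO, against these same backgrounds. Fpr2, a formyl peptide receptor that also binds lipoxin A4, rose from 0.884 ± 0.507 to 246 ± 33.1 CPM in WT (8.11 ± 0.224) and from 0.517 ± 0.251 to 343 ± 23.7 CPM in KO (9.36 ± 0.240). Pparg, a nuclear receptor that binds a prostaglandin D2 derivative, fell from 68.1 ± 2.88 to 7.80 ± 0.283 CPM in WT (-3.13 ± 0.0882). Ptger2, a receptor of prostaglandin E2, was higher by the KO label under PBS (0.71 ± 0.0919, adjusted p = 3.90e-05), as was Ptger4 (0.28 ± 0.0786, adjusted p = 0.0152). Ptgir, the prostacyclin receptor, was higher by the KO label under LPS, at 32.7 ± 1.66 CPM against 22.8 ± 0.989 (0.52 ± 0.0670, adjusted p = 1.64e-05). By the KO label, 3 of the 11 receptors were higher under PBS and 3 under LPS, beside 12.3% and 22.1% of all genes.

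**Figure D5:**
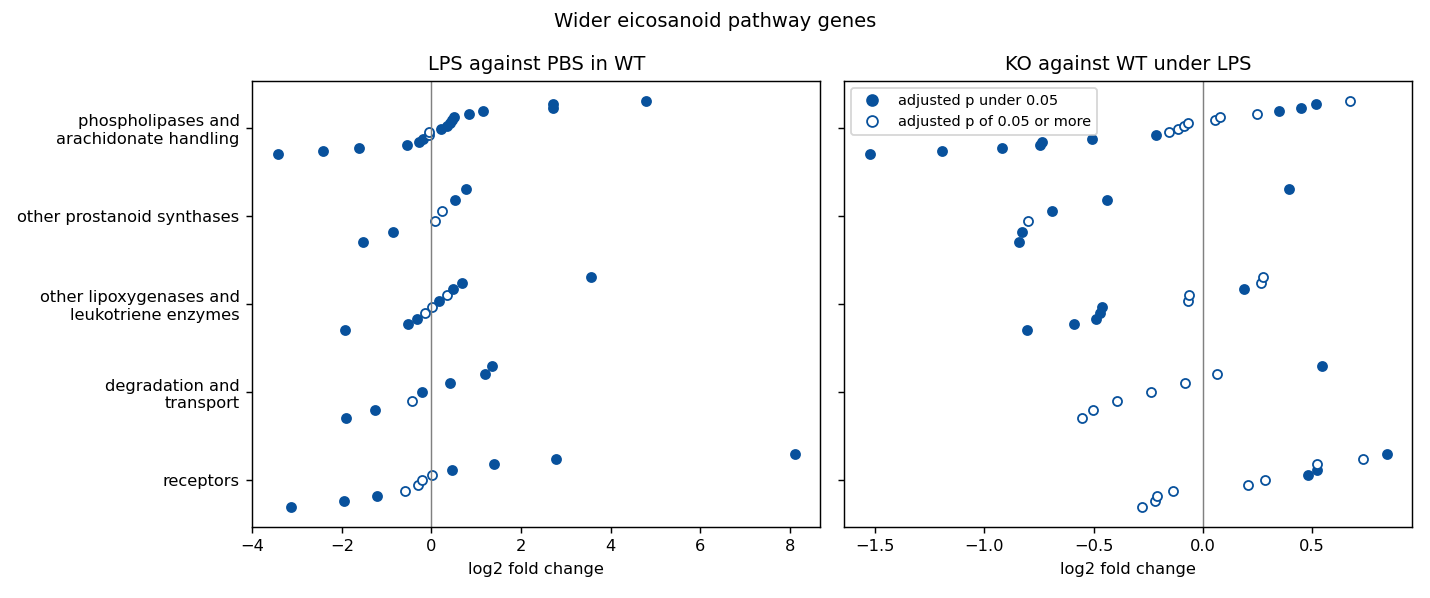
The log2 fold change of each of the 52 tested genes of the wider pathway with LPS in WT (left) and by the KO label under LPS (right), 1 row of points per list, filled where the adjusted p passed. On the left the rightmost point is Fpr2 at 8.11 and the leftmost Pla2g15 at -3.43, and on the right the leftmost is Mgll at -1.52.

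Over the 12 libraries, the log2 CPM of the 9 members with at least 5 CPM in some group was compared with that of 9318 genes. The points share the division into PBS and LPS libraries, and the values are a description. The genes most like Ptgs2 were Il12a (Pearson r = 0.9994), a subunit of interleukin 12, and Trim30a (0.9993), and 732 genes had an r over 0.99. For Ptges they were Pde4b (0.9996), a cAMP phosphodiesterase, and Stk40 (0.9994), for Pla2g4a Ifi203 (0.9994), and for Ptges2 Irf9 (0.9956) and Ppp2r2d (0.9950). Hpgds was most like Bnip3l (0.9972) and Ldb1 (0.9967), and Tbxas1 was most like Cyb5r1 (0.9978) and Jun (0.9971). The patterns of Ptgs1, Alox5ap and Ltc4s had few neighbours, namely Hdac9 (0.9951) and Paics (0.9891), Msrb1 and Rgs2 (both 0.9913), and Arrdc1 (0.9810) and Gm3325 (0.9740).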

How the data were processed

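Each library was sequenced as single-end reads of 50 bases on a BGISEQ-500. The authors deposited 1 table of expected counts per library, unscaled and not restricted to whole numbers. The submitters' processing notes name Bowtie2, RSEM 1.3.1 and GRCm38.p6, whereas the methods say that the authors used STAR and HTSeq, and which made these values is not settled here. Decimals were found in 24.6% to 26.9% of a library's values, as reads shared between genes give, and whether strand was used is not given in the sources used here. The floor of 3 counts covers counting error only, whereas SEs and 95% intervals come from the fit and include the spread between libraries.

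Counts were rounded, filtered with filterByExpr, scaled by TMM and fitted with edgeR 4.0.16 (R 4.3.3, limma 3.58.1) in 1 robust quasi-likelihood model of 12 libraries with 1 mean per group. Two-sided p-values received Benjamini-Hochberg adjustment across the 12064 genes tested, with a threshold of 0.05. SE is the absolute log2 fold change divided by the square root of F. The pipeline was also run on simulated counts with few genes changed, which cannot test the scaling where most genes respond to LPS. Gene positions came from NCBI's GRCm38.p6 table (16803 of 16920 genes matched, 99.3%), exon numbers and lengths from GENCODE.

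The members and lists were chosen with earlier results of these data known. All 10 members were named in every comparison, and from each other list the 2 called genes with the largest absolute change and at least 5 CPM in the higher group. Genes of like pattern were the 2 with the highest r per member, of which 1 is not reported here. The alternatives were RLE and upper-quartile scaling, library totals alone, no filter, a minimum of 10 counts in all libraries, a replicate block, a fit to the groups compared alone, DESeq2 1.42.0, a further threshold of 1 on the log2 scale, and leaving out each library. Protein sequences were not used here.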

Additional observations from a re-analysis of the deposited data

Results flagged for a closer look

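The response to LPS differed between the genotype labels, by the interaction term of edgeR's quasi-likelihood fit, for 7 of the 10 synthesis genes, 3 positive and 4 negative, beside 9.78% and 8.26% of all genes. The difference in log2 response, KO minus WT, was 1.40 for Ptgs2, 1.08 for Ptges and 0.37 for Pla2g4a, and -0.75 for Hpgds, -0.50 for Ptgs1, -0.48 for Alox5ap and -0.43 for Tbxas1. When single libraries were left out, the adjusted p rose to as much as 0.0928 for Ptgs1 and 0.0763 for Pla2g4a.

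Of the 52 tested genes of the wider pathway, the same term passed for 17, with 6 positive and 11 negative, beside 9.78% and 8.26% of all genes. Outside the rule for named genes, the positive values were 0.76 for Acsl4, 0.41 for Plaa, 0.37 for Lpcat2 and 0.35 for Anxa2, and the negative ones -2.02 for Hpgd, -0.67 for Pla2g15, -0.60 for Abhd12 and -0.42 for Ptger4. For the 9 genes named by rule (up to 2 per list, with at least 5 CPM in the higher group), it was -1.15 ± 0.168 for Daglb (adjusted p = 0.000316), -0.98 ± 0.105 for Lpcat1 (adjusted p = 1.28e-05) and -0.90 ± 0.188 for Cbr1 (adjusted p = 0.00367). Lpcat1, an acyltransferase, averaged 29.8 ± 0.681 CPM in WT PBS, 26.3 ± 1.41 in WT LPS, 30.997 ± 1.92 in KO PBS and 13.9 ± 1.07 in KO LPS. The value was -0.47 for Pparg, -0.45 for Ptgr2, -0.41 for Mgst3 and -0.38 for Akr1b3. It was 0.55 for Ptgir, which fell less with LPS by the KO label, and 0.29 for Dpep2.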

How the results depend on the processing

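Of the recomputed log2 fold changes of the members, 933 kept their direction and their side of the threshold, 25 no longer passed, 16 passed where the main fit did not, and 11 changed sign. All 11 concerned uncalled genes in KO against WT under PBS. With library totals alone the values were 0.0097 for Ptges2, 0.0021 for Pla2g4a and 0.024 for Tbxas1. When 1 library at a time was left out, Ptges2 ranged from -0.085 to 0.055, Pla2g4a from -0.11 to 0.029, Tbxas1 from -0.049 to 0.033 and Ptgs2 from -0.47 to 0.35. A further threshold of 1 on the log2 scale left 5 members (WT with LPS), 9 (KO with LPS), 0 (KO against WT under PBS, where 4 had an unadjusted p under 0.05 in edgeR and 4 were called by DESeq2 at any size), 1 (under LPS) and 2 (interaction), and 20 (WT with LPS), 24 (KO with LPS), 2, 2 and 2 genes of the wider lists. Over all genes it left 4390, 5027, 399, 570 and 325. Under PBS, 4629 genes were called in a fit to only the libraries compared, against 3058, and 2022 to 3887 when 1 library was left out, the lowest without KO PBS replicate 1. With totals alone, 61.6% of the calls under PBS, 37.9% of those under LPS and 24.4% of the interactions were higher, in place of 48.6%, 53.4% and 54.2%, and with the upper-quartile scaling 42.2%, 41.6% and 43.1%. The cause was not tested. Alox5 had 9 counts in 1 library and dropped out at a minimum of 10, so it has no value there. The lowest counts per library among the members were those of Alox5 (9 to 64) and of Ptgs2 at rest (22 to 55).

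Replicate numbers are shared between groups, and same-numbered libraries deviated together with correlations of -0.076 to 0.13, 1 of 18 above 0.1. Whether libraries of the same number share animals or a preparation is not given, and such correlations cannot decide it. In 1 of 6 pairs of groups, KO PBS and KO LPS, every library correlated best with its own number. With the replicate block, 9, 10, 4, 8 and 7 members were called in the 5 comparisons in place of 9, 10, 3, 8 and 7. The one added was Alox5ap under PBS (0.16, adjusted p = 0.0377).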

Other observations

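Hdc, the histidine decarboxylase that makes histamine, was chosen after its values were seen. It was listed among the mast cell markers and rose with LPS from 0.167 CPM on average in WT PBS to 145 in WT LPS, and from 0.0584 in KO PBS to 285 in KO LPS. It made up nearly the whole summed level of that list in the LPS libraries, 143 to 149 CPM in WT and 282 to 287 in KO. Hpgd, the enzyme that oxidises prostaglandins to inactive forms, was likewise chosen after its values were seen. It was higher by the KO label under PBS (1.46 ± 0.231 on the log2 scale, adjusted p = 0.000255), had an interaction of -2.02 ± 0.465 (adjusted p = 0.00693), and averaged at most 2.48 CPM in any group.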
